A study of Daphnia magna with 56 samples.

Results

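Whole female *Daphnia magna*, juvenile water fleas 4 days old, were compared after 4 days at 100 mGy/h of gamma radiation with unirradiated animals of the same age (0 mGy/h). Dose rate and exposure time in the sample labels gave each library its group, and the comparison holds 8 of the 56 RNA-seq libraries of the series, 4 in each group. All animals were labelled wild type (WT), and exposed and control animals alike were kept in static beakers of M7 medium. The title of the series places the work in modelling the dose rate at which molecular responses begin. The other day 4 libraries, 4 at each of 0.4, 1, 4, 10 and 40 mGy/h, and the day 8 libraries at 0 and 100 mGy/h are used below where they show how a transcript behaved outside the 8 libraries. The labels do not say how many animals made up a library, or whether replicates came from separate cultures, so p-values measure only the spread between these samples, which may be technical.

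Gamma radiation breaks DNA strands directly and produces reactive oxygen species in the water of the cell. Animals answer such damage by halting the cell cycle, repairing DNA and removing damaged cells, and part of the response is transcriptional. A juvenile daphnid grows through repeated moults, and many genes of the cuticle are transcribed in step with the moult. The records counted here are RefSeq model transcripts known only by accession and, for some, by a LOC number without a description. Their roles are therefore not given below, and the tissue label could not be checked against marker genes.

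The 8 libraries were sequenced to almost the same depth. Total counts ran from 13343830 to 13955640 at 100 mGy/h and from 13399048 to 14243541 at 0 mGy/h, and between 10575 and 10701 records were detected at 100 mGy/h and between 10645 and 10682 at 0 mGy/h. In a principal component analysis of log2 CPM (counts rescaled so that library sizes match), 36.9% of the variance fell on the first component and 31.1% on the second. The first-component score averaged 10.1 ± 22.2 at 100 mGy/h and -10.1 ± 13.6 at 0 mGy/h (SD, n = 4 each), a difference of 20.2 with a two-sided exact permutation p of 0.229, where 0.0286 is the smallest p that 4 against 4 libraries allow. The exposed libraries scored 33.9, 4.00, 20.2 and -17.8, and the control libraries -22.3, -9.85, -17.1 and 8.89, so the groups overlapped on this component.

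Replicate 1 at 100 mGy/h stood apart for 1 set of transcripts, which were grouped here after their values had been seen. Among the transcripts that did not pass the test, 176 had a fitted log2 fold change of at least 1 and 9 of at most -1. In 125 of the 176 (71.0%) replicate 1 at 100 mGy/h was the highest of the 8 libraries, against 16.9% of all tested transcripts, and in 116 it was more than 2 times every other library. XM_032928506.1, for example, had 607, 47.7, 13.2 and 12.7 CPM at 100 mGy/h, against 11.7, 25.8, 12.4 and 16.2 CPM at 0 mGy/h. Its log2 fold change was 3.36 in all libraries (edgeR adjusted p = 0.395) and 0.57 without replicate 1 at 100 mGy/h. The median level of the 176 was 6.58 CPM in that library, between 0.585 and 2.00 CPM in the other exposed libraries and between 0.445 and 1.18 CPM in the controls. In 12 of the 20 libraries at 0.4 to 40 mGy/h their median was higher still, up to 47.3 CPM. Without replicate 1 at 100 mGy/h the median log2 fold change of the 176 was 0.56, against 1.60 with it, and 68 of them still at least doubled. The 176 were chosen for their fold change with that library included, so a smaller median without it follows in part from the choice. Not all of the 176 were highest in replicate 1 at 100 mGy/h. XM_032937049.1, for example, varied within both groups. It had 58.4, 68.5, 333 and 60.9 CPM at 100 mGy/h, against 15.3, 7.58, 15.2 and 204 CPM at 0 mGy/h. Leaving out replicate 1 at 100 mGy/h left 71 calls, 57 of them among the 71 called with all libraries. The called transcripts that at least doubled had a median log2 fold change of 1.41 without that library and 1.37 with it, and it was the highest of the 8 libraries for 1 of the 15.

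At 100 mGy/h, 52 transcripts rose and 19 fell relative to 0 mGy/h, out of 9369 tested (edgeR quasi-likelihood test, Benjamini-Hochberg adjusted p under 0.05). This is 0.758% of the transcripts tested, with 0.555% called higher and 0.203% called lower, and 868 had an unadjusted p under 0.05. The largest changes were rises: 15 of the 52 at least doubled and none of the 19 falls halved, although 22 rises and 10 falls had an absolute log2 fold change of at least 0.5. The median log2 fold change was 0.43 among the rises and -0.59 among the falls, so the median fall was the larger in size. Over all tested transcripts it was 0.00198, with 50.9% above 0. In whole animals, fewer cells of a type and less RNA per cell cannot be told apart. In every one of the 71 the 4 exposed libraries lay on one side of the 4 controls. Among all tested transcripts, 2.55% had all exposed libraries above the controls and 2.68% had them below. The largest adjusted p among the called was 0.0426 and the smallest among the rest was 0.0606, and 38 transcripts, 16 of them with a positive fold change, lay between 0.05 and 0.1.

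**Figure D1:**
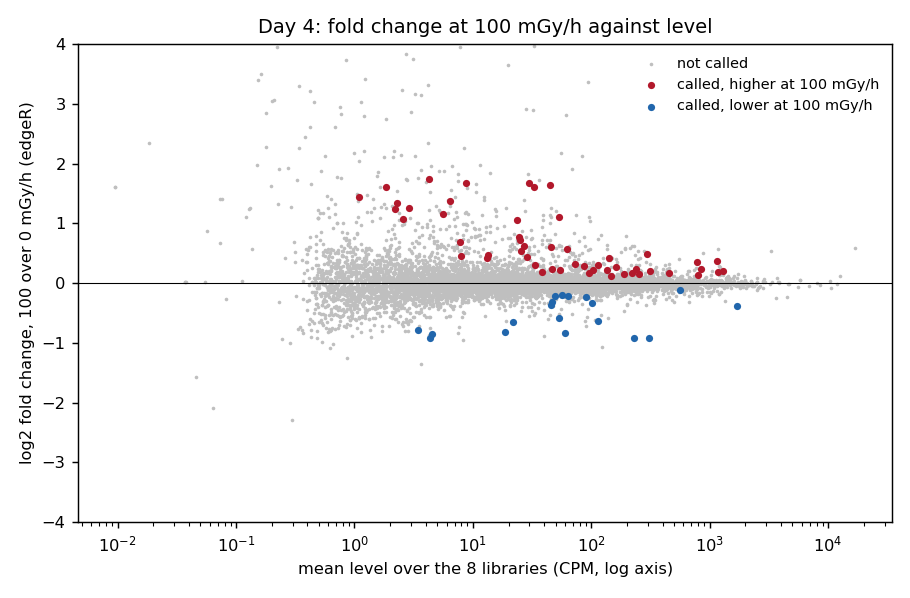
Fitted log2 fold change at 100 over 0 mGy/h (y axis) against the mean level over the 8 libraries (x axis, CPM, log scale), with 1 point for each transcript tested on day 4. Red points are the 52 called higher, blue points the 19 called lower, and 9 transcripts beyond a log2 fold change of 4 in either direction are not drawn. The many grey points far above the red ones are transcripts not called, and 125 of the 176 that at least doubled were highest in replicate 1 at 100 mGy/h.

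The transcript with the lowest adjusted p was XM_032940429.1 (LOC116932654). It had 49.2, 47.2, 40.0 and 43.5 CPM at 100 mGy/h, against 12.5, 16.3, 13.4 and 14 CPM at 0 mGy/h. The groups were widely separated, and every exposed library also lay above all 24 other day 4 libraries. Its log2 fold change was 1.68 (SE 0.10, edgeR adjusted p = 3.05e-10). Along the dose rates it averaged 14 CPM at 0 mGy/h, 16.8 at 0.4, 16.3 at 1, 15.1 at 4, 17.3 at 10, 26.7 at 40 and 45.0 CPM at 100 mGy/h. The libraries at 40 mGy/h, with 26.7, 25.3, 27.0 and 27.8 CPM, lay above all lower dose rates and below all of the 100 mGy/h libraries. XM_032939826.1 (LOC116932096) had a similar step. It had 6.58, 7.86, 7.30 and 9.0 CPM at 100 mGy/h, against 3.63, 3.31, 3.34 and 3.47 CPM at 0 mGy/h, giving log2 fold change 1.16 (SE 0.14, edgeR adjusted p = 2.82e-05). From 0.4 to 10 mGy/h its means stayed between 3.08 and 3.53 CPM, and at 40 mGy/h its libraries were split, with 5.89 and 6.14 CPM in replicates 1 and 3 and 3.63 and 4.04 CPM in replicates 2 and 4.

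Of the 12 rises named for their size, 3 did not double. XM_032926853.1, which matched no symbol, had 29.0, 29.5, 30.3 and 34.7 CPM at 100 mGy/h, against 16.6, 20.5, 17.6 and 17.6 CPM at 0 mGy/h, giving log2 fold change 0.77 (SE 0.09, edgeR adjusted p = 1.52e-05). XM_032933233.1 (LOC116926364) had 8.64, 9.71, 9.74 and 10.3 CPM at 100 mGy/h, against 6.08, 5.74, 6.4 and 5.61 CPM at 0 mGy/h, giving log2 fold change 0.69 (SE 0.08, edgeR adjusted p = 1.96e-05). At 40 mGy/h its level, with 9.36, 7.96, 8.28 and 8.00 CPM, overlapped that at 100 mGy/h, and at 0.4 to 10 mGy/h the means were 4.86 to 6.11 CPM. XM_032929703.1 (LOC116923228) followed another course. It had 37.8, 28.4, 31.6 and 26.1 CPM at 100 mGy/h, against 16.9, 18.1, 21.0 and 19.0 CPM at 0 mGy/h, giving log2 fold change 0.72 (SE 0.12, edgeR adjusted p = 0.00236). Its means were already 24.9 CPM at 0.4 mGy/h and reached 30.0 CPM at 10 mGy/h, so the level at 100 mGy/h, a mean of 31.0 CPM, set it apart from the controls more than from the lower dose rates. When the fit held only the compared groups it was not called (edgeR adjusted p = 0.0839).

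The other 7 named rises that at least doubled differed in how even their replicates were. XM_032939781.1 (LOC116932061) had 70.9, 62.3, 73.3 and 65.4 CPM at 100 mGy/h, against 25.1, 20.1, 19.1 and 23.3 CPM at 0 mGy/h, giving log2 fold change 1.64 (SE 0.19, edgeR adjusted p = 1.23e-05). XM_032939223.1 (LOC123466359) had 52.1, 44, 58.7 and 44.7 CPM at 100 mGy/h, against 18, 13.3, 19.6 and 14.8 CPM at 0 mGy/h, giving log2 fold change 1.60 (SE 0.20, edgeR adjusted p = 2.15e-05). XM_032939783.1 (LOC116932065) had 7.04, 6.17, 7.59 and 5.49 CPM at 100 mGy/h, against 2.22, 1.18, 2.63 and 1.85 CPM at 0 mGy/h, giving log2 fold change 1.73 (SE 0.26, edgeR adjusted p = 0.000431). None of these 3 overlapped between the groups, which the naming rule required. XM_032939993.1 had 14, 12.1, 15.8 and 11.5 CPM at 100 mGy/h, against 3.78, 3.83, 5.48 and 3.69 CPM at 0 mGy/h, giving log2 fold change 1.67 (SE 0.20, edgeR adjusted p = 1.96e-05). XM_032943924.1 had 74.3, 75.0, 74.7 and 67.1 CPM at 100 mGy/h, against 35.1, 32.6, 34.0 and 34.1 CPM at 0 mGy/h, giving log2 fold change 1.10 (SE 0.12, edgeR adjusted p = 8.09e-06). XM_032921550.1 (LOC116916319) had 32.0, 31.4, 33.5 and 31.6 CPM at 100 mGy/h, against 14.8, 15, 16.2 and 15.6 CPM at 0 mGy/h, giving log2 fold change 1.06 (SE 0.12, edgeR adjusted p = 1.52e-05). The same rule held for these 3. Replicate 3 of the controls stood above the other controls of XM_032939993.1, and replicate 4 at 100 mGy/h below the other exposed libraries of XM_032943924.1. XM_032936718.1 was the least even, with 8.80, 6.71, 12.3 and 9.15 CPM at 100 mGy/h, against 4.45, 4.12, 3.70 and 1.99 CPM at 0 mGy/h. Its log2 fold change, 1.37 (SE 0.31, edgeR adjusted p = 0.0315), was not called in 6 of 8 fits that dropped 1 library each, all but those without replicate 1 of the controls or replicate 2 at 100 mGy/h. It was also not called when the fit held only the compared groups (edgeR adjusted p = 0.144) or within the smaller class of library totals. Its log2 fold change lay between 1.18 and 1.5 over all fits tried.

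At 10 mGy/h several of these transcripts were uneven among the replicates. XM_032939781.1 had 28.8, 44.7, 27.8 and 38.3 CPM there, XM_032939223.1 had 22.2, 37.0, 19.2 and 30.8 CPM, and XM_032943924.1 had 35.9, 53.6, 36.6 and 44.9 CPM. XM_032936718.1 was also uneven there, with 5.13, 11.4, 4.38 and 7.85 CPM. In each of these, replicates 2 and 4 at 10 mGy/h were above replicates 1 and 3. Replicate 2 was the highest at 10 mGy/h for 10 of the 12 named rises. Replicate 2 was also the highest of its group for 8 of the 12 at 0.4 mGy/h and 8 of the 12 at 1 mGy/h, and replicate 1 for 7 of the 12 at 4 mGy/h. In the compared groups, replicate 3 was the highest for 6 of the 12 at 0 mGy/h and 6 of the 12 at 100 mGy/h. At 40 mGy/h no replicate was the highest for more than 4 of the 12. These counts are a description, since the transcripts are not independent of one another.

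**Figure D2:**
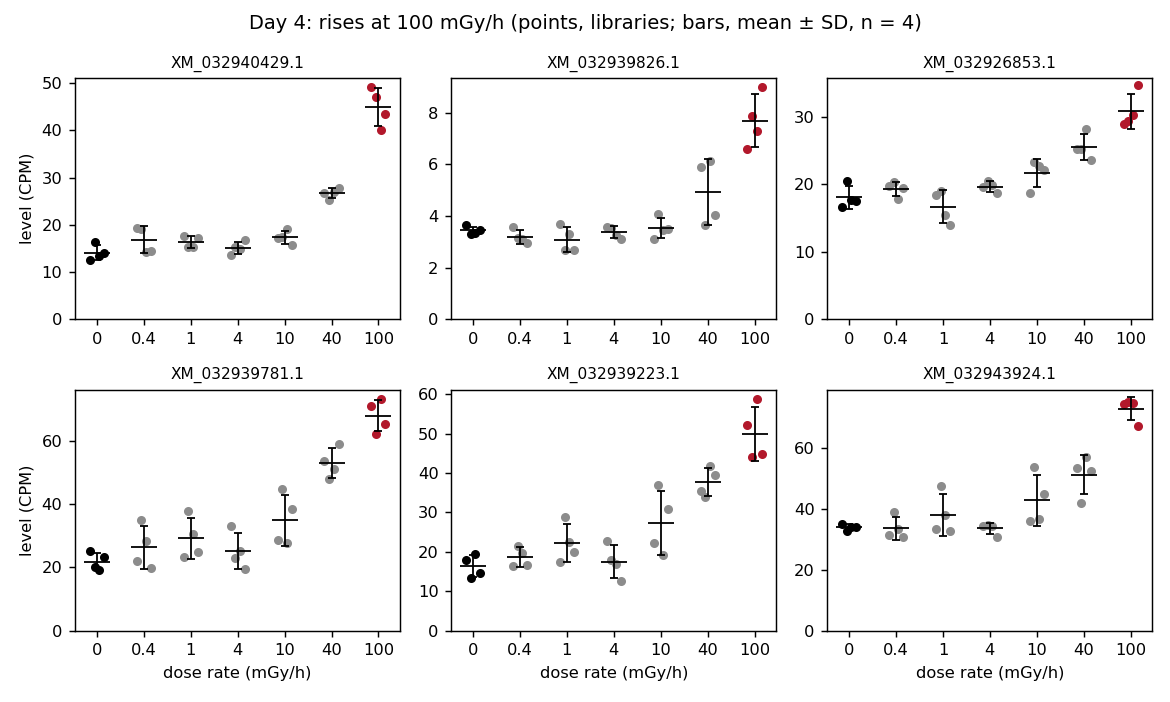
Level (y axis, CPM) of 6 named rises in all 28 day 4 libraries by dose rate (x axis, mGy/h), with points for libraries and bars for the mean and SD of 4. In the upper row the dose rates up to 10 mGy/h stay near the control. In the lower row single libraries at 1 and 10 mGy/h already stand above their group. In all 6 transcripts every 100 mGy/h library is above every other library.

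The remaining members of the 15 that at least doubled had under 50 mean counts, the minimum set for naming, except those given above. They were XM_032940017.1 (LOC116932214), XM_032939788.1 (LOC116932068), XM_032941318.1, XM_032936720.1, XM_032941320.1 and XM_032924063.1 (LOC116918365). Their means ran from 1.60 to 4.07 CPM at 100 mGy/h and from 0.586 to 1.70 CPM at 0 mGy/h, and their log2 fold changes from 1.08 to 1.60. XM_032940017.1, with the lowest adjusted p of the 6 (edgeR adjusted p = 0.00245), had 2.75, 2.85, 2.94 and 2.63 CPM at 100 mGy/h, against 1.33, 0.441, 1.07 and 0.812 CPM at 0 mGy/h. Its exposed libraries were close together and its controls were more spread. It and XM_032924063.1 were called in all 8 fits that dropped 1 library, whereas XM_032941318.1 was called in 6 of them, XM_032941320.1 in 5, XM_032936720.1 in 3 and XM_032939788.1 in 2.

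Several of these rises lay near one another in the genome. Of the 71 called transcripts, 41 (32 higher and 9 lower) could be matched to a gene in RefSeq (assembly ASM2063170v1.1), used here only for symbols and gene order. The match ignored version numbers, with which 101 of 23570 records matched, and the genome build behind the counts is not given. LOC116932065 and LOC116932061 (XM_032939783.1 and XM_032939781.1) were direct neighbours among protein-coding genes, and LOC116932068 (XM_032939788.1) lay 2 genes beyond the second of them. Of the 9 at least doubled transcripts that could be placed, 7 were on 1 linkage group, which held 7.08% of the placed tested genes, and no other linkage group had more than 1. Of those 7, the 6 transcripts XM_032939783.1, XM_032939781.1, XM_032939788.1, XM_032939826.1, XM_032940017.1 and XM_032939223.1 lay within a stretch of 91 consecutive protein-coding genes, whose ends were set after the values were seen. The stretch held 37 tested transcripts, of which 7 were called, all higher, with a median log2 fold change of 1.60. The one that did not double was XM_032939987.1, with a log2 fold change of 0.20. Of the 7, XM_032939788.1 was called in 2 of the 8 fits that dropped 1 library and XM_032939987.1 in 1, and the other 5 were called in all 8. The 30 not called had a median log2 fold change of 0.08, where that of all tested transcripts was 0.00198. A second direct pair of neighbours, LOC116932734 and LOC116932735 (XM_032940567.1 and XM_032940568.1), rose with log2 fold changes of 0.35 and 0.30 (edgeR adjusted p = 0.000394 and 0.0120). Over all placed genes, 4 of the 41 called genes (9.76%) had another called gene directly beside them, against 40 of 6355 tested genes (0.629%). Within 10 gene positions the shares were 17.1% and 5.43%. Neighbouring genes can be near-identical copies whose reads the authors' counting may have divided, so the separate levels of adjacent members are uncertain.

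Among the smaller rises, XM_032937846.1 (LOC116930434) had the lowest adjusted p. It had 161, 172, 158 and 160.4 CPM at 100 mGy/h, against 125, 120.3, 116 and 125 CPM at 0 mGy/h, giving log2 fold change 0.42 (SE 0.03, edgeR adjusted p = 9.43e-09). XM_032941777.1 had 32.2, 31.8, 31.4 and 34.6 CPM at 100 mGy/h, against 20.5, 22.4, 21.7 and 20.5 CPM at 0 mGy/h, giving log2 fold change 0.61 (SE 0.06, edgeR adjusted p = 6.77e-07). Both were outside the naming rule and were chosen for their adjusted p. In both, replicates within a group differed by less than the gap between the groups, and the 40 mGy/h means, 141 CPM for XM_032937846.1 and 29.0 CPM for XM_032941777.1, lay between the control and the 100 mGy/h means. The 3 rises with the most counts were small in size. XM_032939987.1 (LOC116932186) had 1396, 1431, 1367 and 1383 CPM at 100 mGy/h, against 1256, 1144, 1216 and 1241 CPM at 0 mGy/h, giving log2 fold change 0.20 (SE 0.05, edgeR adjusted p = 0.0318). XM_032943008.1 had 1274, 1233.9, 1259.6 and 1233.8 CPM at 100 mGy/h, against 1133, 1050.1, 1081 and 1115 CPM at 0 mGy/h, giving log2 fold change 0.19 (SE 0.03, edgeR adjusted p = 0.00424). XM_032939959.1 had 1456, 1267, 1159.6 and 1282 CPM at 100 mGy/h, against 872, 1154, 952 and 1003 CPM at 0 mGy/h, giving log2 fold change 0.38 (SE 0.08, edgeR adjusted p = 0.0225). In XM_032939959.1 replicate 2 of the controls almost reached the lowest exposed library. Of the 8 fits that dropped 1 library, XM_032939987.1 was called in the one without replicate 1 of the controls, and it was also not called with surrogate variables as covariates or within the smaller class of library totals. XM_032939959.1 was called in those without replicate 2 of the controls, replicate 2 at 100 mGy/h or replicate 3 at 100 mGy/h. None of these 3 was called when the fit held only the compared groups (edgeR adjusted p = 0.124 for XM_032939987.1, 0.116 for XM_032943008.1 and 0.377 for XM_032939959.1).

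The 3 largest falls by log2 fold change included a pair of records with consecutive accession numbers. XM_032933480.1 (LOC116926536) had 158, 188, 128 and 165 CPM at 100 mGy/h, against 378, 211, 358 and 265 CPM at 0 mGy/h, giving log2 fold change -0.93 (SE 0.19, edgeR adjusted p = 0.0120). XM_032933479.1 had 228, 248, 171 and 209 CPM at 100 mGy/h, against 467, 336, 444 and 368 CPM at 0 mGy/h, giving log2 fold change -0.92 (SE 0.14, edgeR adjusted p = 0.000618). In both, the control replicates 1 and 3 were well above replicates 2 and 4, and all exposed libraries were below every control. Their course along the dose rates had 2 directions. XM_032933480.1 averaged 303 CPM at 0 mGy/h, 239.7 at 0.4, 428 at 1, 323 at 4, 464 at 10, 544 at 40 and 159.6 CPM at 100 mGy/h, and XM_032933479.1 averaged 404, 302, 551, 400.4, 485, 643 and 214 CPM at the same dose rates. The highest mean was thus at 40 mGy/h and the lowest at 100 mGy/h. Another record carries the symbol of XM_032933480.1, and reads divided between these records would make its level uncertain. It was not called without replicate 1 or replicate 3 of the controls or without replicate 3 at 100 mGy/h, nor with the compared groups alone in the fit (edgeR adjusted p = 0.180).

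Among the falls, XM_032942889.1 had the lowest adjusted p. XM_032942883.1 (LOC116935591) had 50.6, 47.0, 41.2 and 35.0 CPM at 100 mGy/h, against 81.4, 73.6, 73.0 and 81.2 CPM at 0 mGy/h, giving log2 fold change -0.83 (SE 0.12, edgeR adjusted p = 0.000265). XM_032942889.1 had 15.9, 12, 13 and 13.2 CPM at 100 mGy/h, against 25.2, 20.2, 24 and 25.9 CPM at 0 mGy/h, giving log2 fold change -0.82 (SE 0.11, edgeR adjusted p = 8.02e-05). Both were called in every fit tried, as was XM_032933479.1, and no other fall was. XM_032935780.1 (LOC116928687) had 2.68, 3.24, 3.08 and 3.00 CPM at 100 mGy/h, against 6.0, 6.25, 6.33 and 4.13 CPM at 0 mGy/h, giving log2 fold change -0.92 (SE 0.15, edgeR adjusted p = 0.00180). XM_032922763.1 had 3.21, 3.01, 3.29 and 3.29 CPM at 100 mGy/h, against 6.0, 6.33, 4.41 and 6.35 CPM at 0 mGy/h, giving log2 fold change -0.85 (SE 0.15, edgeR adjusted p = 0.00432). In each of the last 2 a single control, replicate 4 or replicate 3, sat between the other controls and the exposed libraries, and neither was called when only the compared groups were fitted (edgeR adjusted p = 0.0839 for XM_032935780.1 and 0.0683 for XM_032922763.1).

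XM_032927612.1 (LOC116921349) was the fall with the most counts. It had 1399, 1507, 1483 and 1462 CPM at 100 mGy/h, against 2034, 1690.4, 2105 and 1806 CPM at 0 mGy/h, giving log2 fold change -0.38 (SE 0.08, edgeR adjusted p = 0.0225). All exposed libraries were below all 24 other day 4 libraries, whose group means ran from 1909 CPM at 0 mGy/h to 2422 CPM at 10 mGy/h. It was not called in 6 of the 8 fits that dropped 1 library, all but those without replicate 2 or replicate 4 of the controls. XM_032940963.1 had 21.8, 18.1, 12.7 and 15 CPM at 100 mGy/h, against 26.8, 26.0, 26.3 and 27.7 CPM at 0 mGy/h, giving log2 fold change -0.66 (SE 0.15, edgeR adjusted p = 0.0284). Its means at 0.4 to 40 mGy/h, from 18.6 to 21.4 CPM, were also under the control mean of 26.7 CPM, and it was called in 1 of the 8 fits without 1 library, the one without replicate 1 at 100 mGy/h. XM_032931654.1 (LOC116925029) had 76.6, 100.3, 71.0 and 107 CPM at 100 mGy/h, against 161, 108, 144 and 137 CPM at 0 mGy/h, giving log2 fold change -0.63 (SE 0.14, edgeR adjusted p = 0.0225). Its highest exposed library almost met its lowest control, and of those 8 fits it was called in the ones without replicate 2 of the controls, replicate 2 at 100 mGy/h or replicate 4 at 100 mGy/h. XM_032939080.1 (LOC116931447) had 46.7, 48.6, 35.6 and 38.1 CPM at 100 mGy/h, against 66.1, 59.9, 67.1 and 61.4 CPM at 0 mGy/h, giving log2 fold change -0.59 (SE 0.10, edgeR adjusted p = 0.00151). When the fit held only the compared groups, none of these 4 was called, with edgeR adjusted p-values of 0.110 for XM_032927612.1, 0.243 for XM_032940963.1, 0.352 for XM_032931654.1 and 0.0960 for XM_032939080.1.

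**Figure D3:**
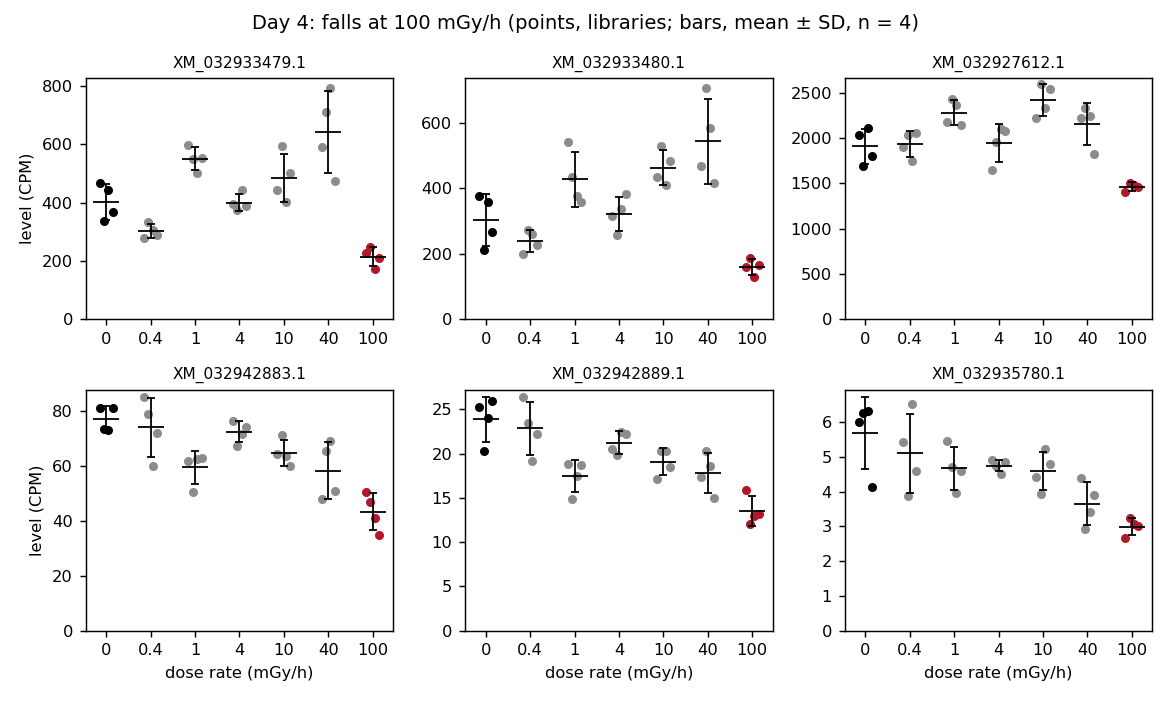
Level (y axis, CPM) of 6 named falls in all 28 day 4 libraries by dose rate (x axis, mGy/h), with points for libraries and bars for the mean and SD of 4. XM_032933479.1 and XM_032933480.1 have their highest mean at 40 mGy/h and their lowest at 100 mGy/h. XM_032942883.1, XM_032942889.1 and XM_032935780.1 have their highest mean at 0 mGy/h.

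Over the whole set, the mean at 100 mGy/h was the highest of the 7 dose rates in 50 of the 52 rises and the lowest in all 19 falls. The 2 exceptions among the rises were XM_032936720.1, highest at 40 mGy/h with 4.59 CPM against 4.07 CPM at 100 mGy/h, and XM_032941560.1, highest at 1 mGy/h. XM_032941560.1 had 41.4, 38.9, 41 and 42.2 CPM at 100 mGy/h, against 35.9, 36.9, 36.6 and 34.4 CPM at 0 mGy/h (fold change 0.18 on the log2 scale, edgeR adjusted p = 0.0377). At 1 mGy/h its mean was 50.1 ± 1.33 CPM and at 40 mGy/h 34.9 ± 1.02 CPM (SD, n = 4 each), so its course along the dose rates was not a steady one. All 4 exposed libraries lay above all 24 other day 4 libraries for 29 of the 52 rises, and below all of them for 6 of the 19 falls. Among all tested transcripts, 41 (0.438%) lay above and 9 (0.0961%) below. These counts share the 100 mGy/h libraries that chose the members, so they describe the members and are not a second test.

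**Figure D4:**
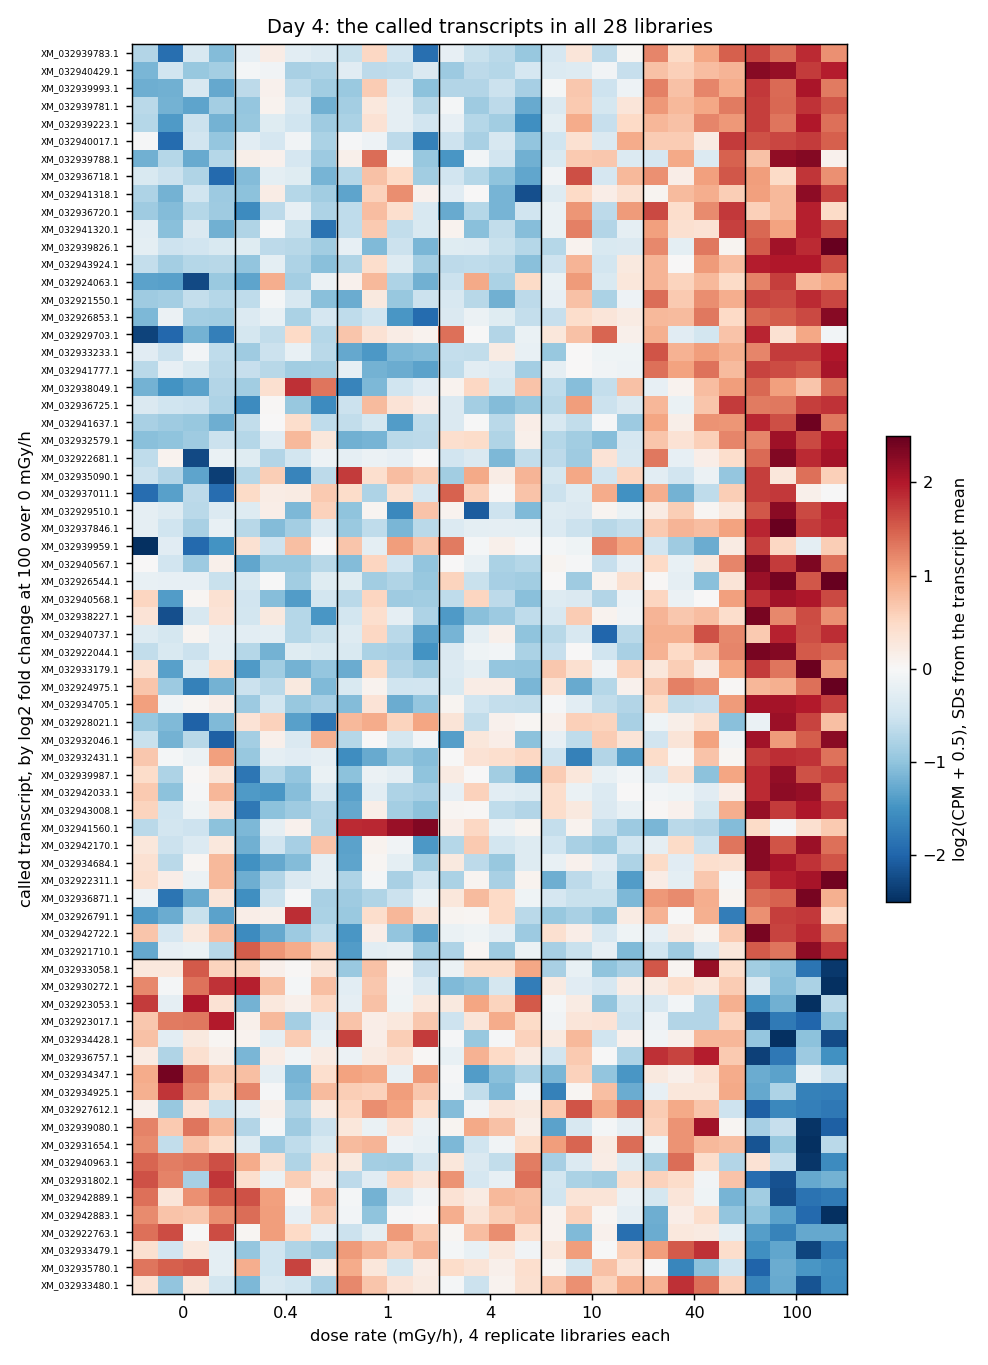
Level of the 71 called transcripts (rows, ordered by log2 fold change at 100 over 0 mGy/h) in the 28 day 4 libraries (columns, by dose rate in mGy/h, 4 replicates each). Colour is log2(CPM + 0.5) in SDs from the transcript's mean, and the horizontal line separates the 52 rises from the 19 falls. The 100 mGy/h columns are red for the rises and blue for the falls. The first rows are also red at 40 mGy/h, where replicates of 1 group differ in many rows.

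Set against the next lower dose rate, the 100 mGy/h libraries differed from those at 40 mGy/h in 71 transcripts (0.758% of those tested), 39 higher (0.416%) and 32 lower (0.342%). This comparison shares its 100 mGy/h libraries with the one against the control, so values are given side by side and no overlap is counted. XM_032940429.1 rose against both, with log2 fold changes of 1.68 over 0 mGy/h and 0.75 over 40 mGy/h (edgeR adjusted p = 0.000185 for the second). XM_032939826.1 had 1.16 over 0 mGy/h and 0.64 over 40 mGy/h (edgeR adjusted p = 0.0269), the second not called without replicate 2 or 4 of either group. With only the 100 and 40 mGy/h groups fitted, this second change was not called either (edgeR adjusted p = 0.454). Neither of these rises over 40 mGy/h was called within the smaller class of library totals. For XM_032939781.1 the log2 fold change over 40 mGy/h was 0.36 and not called (edgeR adjusted p = 0.486), and for XM_032939223.1 it was 0.40 (edgeR adjusted p = 0.444). XM_032933480.1 fell by 1.77 on the log2 scale against 40 mGy/h (edgeR adjusted p = 1.00e-05), against a fall by 0.93 relative to 0 mGy/h.

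The largest fall relative to 40 mGy/h that met the naming rule was that of XM_032933445.1, which was not called against the control. It had 18.9, 47.0, 23.1 and 22.5 CPM at 100 mGy/h, against 139, 209.5, 209 and 104 CPM at 40 mGy/h, that is, a log2 fold change of -2.57 (adjusted p = 0.000308). Its controls, with 72.3, 31.9, 68.2 and 34.7 CPM, overlapped the 100 mGy/h libraries. Its highest value at 100 mGy/h, in replicate 2, was below the lowest value at 40 mGy/h, 104 CPM. The largest rises over 40 mGy/h were XM_032936030.1 (LOC116928890) and XM_032921847.1 (LOC116916592). XM_032936030.1 had 126, 111, 80.0 and 123 CPM at 100 mGy/h, against 46.3, 29.1, 17.3 and 27.0 CPM at 40 mGy/h, that is, a log2 fold change of 1.88 (adjusted p = 0.0159). XM_032921847.1 had 4689, 4717, 2776 and 3499 CPM at 100 mGy/h, against 1914, 1105, 988 and 1024 CPM at 40 mGy/h, that is, a log2 fold change of 1.64 (adjusted p = 0.0119). Neither was called over 0 mGy/h, where the log2 fold changes were 0.77 and 0.54 (edgeR adjusted p = 0.538 and 0.661) and XM_032921847.1 averaged 2691 ± 469 CPM (SD, n = 4). With only the 100 and 40 mGy/h groups fitted, none of the 3 passed, with edgeR adjusted p-values of 0.0738 for XM_032933445.1, 0.103 for XM_032936030.1 and 0.106 for XM_032921847.1. Without replicate 2 or replicate 3 at 40 mGy/h neither rise was called, and XM_032936030.1 was also not called without replicate 4.

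Against the mean of the 5 lower dose rates, 0.4 to 40 mGy/h, 298 transcripts were called at 100 mGy/h (3.18%), of which 170 were higher (1.81%) and 128 lower (1.37%). XM_032923507.1 had the largest rise by the naming rule. It had 21379, 25862, 16096 and 18629 CPM at 100 mGy/h, and group means of 10054 CPM at 0.4 mGy/h, 6419 at 1, 8259 at 4, 6308 at 10 and 8474 CPM at 40 mGy/h, that is, a log2 fold change of 1.40 (adjusted p = 3.98e-05). At 0 mGy/h it had 14154, 10682, 17620.2 and 11839 CPM, which reached into the range at 100 mGy/h, and the log2 fold change over 0 mGy/h was 0.59 and not called (edgeR adjusted p = 0.469). XM_032940429.1 had a log2 fold change of 1.32 over the lower dose rates (edgeR adjusted p = 1.79e-11). XM_032933480.1 and XM_032933479.1 fell by 1.27 and 1.11 on the log2 scale (edgeR adjusted p = 1.64e-05 and 2.67e-06). XM_032929703.1 and XM_032939959.1, which rose over the control, were not called over the lower dose rates, with log2 fold changes of 0.17 and 0.08 (edgeR adjusted p = 0.381 and 0.565).

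The day 8 libraries at 100 and 0 mGy/h took no part in choosing the day 4 calls and came from animals exposed, and aged, 4 days longer. All 71 transcripts were tested there, and 13 were called, where 2.73% of all transcripts tested on day 8 were called. Of the 13, 11 rose on both days and 1, XM_032923053.1, fell on both. The other, XM_032942722.1, rose on day 4 with a log2 fold change of 0.14 and fell on day 8 by 0.41 (edgeR adjusted p = 0.0372 and 0.0427). Of the 52 day 4 rises, 35 had a positive log2 fold change on day 8, with a median of 0.14, where 52.4% of all tested transcripts were positive and their median was 0.02. Of the 19 day 4 falls, 8 had a negative log2 fold change on day 8, with a median of 0.06. With surrogate variables as covariates, 20 transcripts in all were called on day 8, against 256 without them.

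The rises found on both days included the one with the lowest adjusted p on day 4. XM_032940429.1 averaged 57.0 ± 4.07 CPM at 100 mGy/h, against 13.1 ± 1.66 CPM at 0 mGy/h on day 8 (SD, n = 4 each), a log2 fold change of 2.12. XM_032939826.1 averaged 8.57 ± 1.36 CPM at 100 mGy/h, against 3.56 ± 1.25 CPM at 0 mGy/h (fold change 1.27 on the log2 scale, edgeR adjusted p = 0.00815), and XM_032926853.1 averaged 34.3 ± 3.48 CPM and 20.9 ± 5.15 CPM (0.72, edgeR adjusted p = 0.00729). XM_032933233.1 averaged 7.29 ± 0.448 CPM at 100 mGy/h, against 2.88 ± 0.462 CPM at 0 mGy/h (fold change 1.34 on the log2 scale, edgeR adjusted p = 0.000377), a larger ratio than its 0.69 on day 4. The other 7 were XM_032941777.1, XM_032941637.1, XM_032937846.1, XM_032938227.1, XM_032940737.1, XM_032922311.1 and XM_032926791.1, with day 8 log2 fold changes of 0.86, 0.68, 0.36, 0.55, 0.46, 0.22 and 0.28. Their edgeR adjusted p-values on day 8 were 0.00440, 0.00237, 0.0464, 0.0252, 0.00440, 0.0437 and 0.0499 in the same order. Fits without 1 library gave 35 to 184 calls in all on day 8. Which transcripts kept their day 8 call in those fits was not recorded. Of these 7, XM_032938227.1 was called on day 4 in 4 of the 8 fits that left out 1 library, XM_032940737.1 in 2 and XM_032926791.1 in 0, and the other 4 in all 8.

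Apart from XM_032940429.1 and XM_032939826.1, no named rise that at least doubled on day 4 passed on day 8. XM_032939781.1 averaged 42.8 ± 6.53 CPM at 100 mGy/h, against 40.0 ± 5.56 CPM at 0 mGy/h on day 8 (log2 fold change 0.10, edgeR adjusted p = 0.801). XM_032939223.1 averaged 66.7 ± 11.6 CPM at 100 mGy/h, against 55.5 ± 5.50 CPM at 0 mGy/h (0.26, edgeR adjusted p = 0.399), and XM_032943924.1 averaged 78.8 ± 7.75 CPM and 69.1 ± 7.13 CPM (0.19, edgeR adjusted p = 0.442). The day 8 control levels of all 3 stood above their day 4 control levels, which were 21.9, 16.4 and 33.9 CPM. The day 8 controls of XM_032940429.1 and XM_032939826.1 were close to the day 4 ones. Levels were scaled separately for each day, so this is a comparison of CPM values and not a test.

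The difference between the days was tested in 1 edgeR model over the 16 libraries at 100 and 0 mGy/h, where 410 of 9329 transcripts (4.39%) were called, 193 (2.07%) with the higher fold change on day 8 and 217 (2.33%) with the lower one. Without replicate 3 of the day 4 controls the total was 153, and without replicate 3 at 100 mGy/h on day 8 it was 787. Of the 71, 23 were called, among them 18 day 4 rises with a lower fold change on day 8 and 4 day 4 falls with a higher one. The day 8 log2 fold changes of the 18 ran from -0.41 (XM_032942722.1) to 0.43 (XM_032939783.1). Those of the 4 falls were positive, and none was called on day 8. They were 0.61 for XM_032931654.1, 0.38 for XM_032940963.1, 0.30 for XM_032942889.1 and 0.27 for XM_032933480.1. Transcripts chosen for a difference on day 4 tend to show a smaller one elsewhere, so these counts are not independent of the choice. The remaining 1 of the 23, XM_032933233.1, had a larger fold change on day 8, by 0.65 on the log2 scale (edgeR adjusted p = 0.0316). For XM_032939781.1 the day 8 fold change minus the day 4 fold change was -1.54 (edgeR adjusted p = 0.00192), and for XM_032940429.1 it was 0.44 and not called (edgeR adjusted p = 0.0953).

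**Figure D5:**
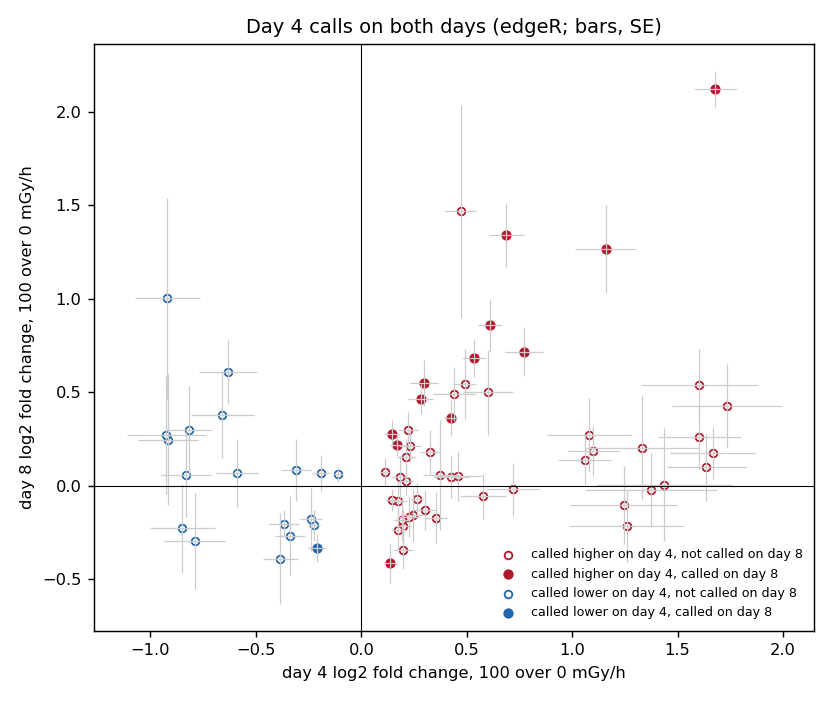
Log2 fold change at 100 over 0 mGy/h on day 8 (y axis) against that on day 4 (x axis) for the 71 transcripts called on day 4, with bars of 1 SE. Filled points were also called on day 8. XM_032940429.1 is at the upper right, and most rises above a day 4 log2 fold change of 1 lie near 0 on day 8.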

How the data were processed

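Paired reads of 100 bp were made on a BGISEQ-500 from mRNA of whole animals, per the labels' protocols. The values used are raw counts deposited by the authors, 1 table a day with 23570 RefSeq model transcript records and 28 libraries. HISAT is listed in the submitters' processing notes. The counting program, genome build, annotation and treatment of strand are not given in the sources used here, so reads from overlapping or antisense genes cannot be told apart.

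Analysis used edgeR 4.0.16 in R 4.3.3. A filter on low counts (filterByExpr, by dose rate) kept 9369 transcripts on day 4 and 9367 on day 8. After TMM scaling, a quasi-likelihood model (glmQLFit, glmQLFTest) with 1 coefficient a dose rate took in the 28 libraries of each day, which share the estimate of spread (common biological coefficient of variation 0.233 on day 4). Tests were two-sided, p-values were adjusted over all tested transcripts within each comparison, and a transcript was called at an adjusted p under 0.05. The SE is the log2 fold change divided by the root of the F statistic. CPM is not per length, so levels of different transcripts are not compared. Principal components used log2 CPM with a prior count of 2. No 2 of the 8 libraries agreed within sampling noise (chi-square over degrees of freedom at least 9.74 for each pair).

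Transcripts named had a mean of at least 50 counts and groups that did not overlap. They were the 12 largest rises and 10 largest falls, the 4 with the most counts, the 2 largest rises and falls against 40 mGy/h and against 0.4 to 40 mGy/h, and the 4 with the largest smaller change among those called on both days. Others are said to have been chosen after their values were seen, or are listed as remaining members. The comparison, members and lists were chosen with earlier results of these data known. Alternatives were DESeq2 1.42.0, RLE scaling, no count filter, the replicate number as a block, surrogate variables (sva 3.50.0), only the compared groups, 1 class of library totals, and each library left out.

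Of the records, 14015 (59.5%) matched a LOC symbol when version numbers were ignored, and 101 matched with them; the share was 67.9% of tested and 57.7% of called transcripts. The reference table used here holds no descriptions or sequences, so the pathway gene lists drawn up for this comparison could not be applied, and checks of GC content and length are void.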

Additional observations from a re-analysis of the deposited data

Results flagged for a closer look

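In groups of 4 libraries, the highest or lowest value was set against Dixon's critical value. Of 60 groups examined, over the named transcripts and the first-component scores, 4 exceeded it, where chance alone gives about 1 in 20, or 3. The values were 5.48 CPM of XM_032939993.1 in replicate 3 at 0 mGy/h, above its group, and 67.1 CPM of XM_032943924.1 in replicate 4 at 100 mGy/h, below its group. The others were 4.13 CPM of XM_032935780.1 in replicate 4 at 0 mGy/h, below its group, and 47.0 CPM of XM_032933445.1 in replicate 2 at 100 mGy/h, above its group.

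The effect of 100 mGy/h differed between the days for 14 of the 29 named transcripts in the edgeR interaction test, where 4.39% of all tested transcripts were called. That total, 410, became 167 with a replicate block and 153 without replicate 3 of the day 4 controls. Most were named for a day 4 difference, which makes these tests dependent on that choice. As day 8 minus day 4 on the log2 scale, the difference was -1.31 for XM_032939783.1 (edgeR adjusted p = 0.0349), -1.50 for XM_032939993.1 (0.00608), -1.54 for XM_032939781.1 (0.00192), -1.35 for XM_032939223.1 (0.00697) and -1.40 for XM_032936718.1 (0.0265). It was -0.92 for XM_032943924.1 (edgeR adjusted p = 0.00236), -0.93 for XM_032921550.1 (0.00488), -0.75 for XM_032929703.1 (0.0150) and -0.55 for XM_032939987.1 (0.00883). The rise of XM_032933233.1 was larger on day 8 by 0.65 (edgeR adjusted p = 0.0316). Among the falls the difference was 1.19 for XM_032933480.1 (edgeR adjusted p = 0.0370), 1.11 for XM_032942889.1 (0.0296), 1.03 for XM_032940963.1 (0.0290) and 1.23 for XM_032931654.1 (0.0116). Age and length of exposure differ together between the days and cannot be told apart.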

How the results depend on the processing

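For 100 against 0 mGy/h on day 4, the 71 calls became 131 with DESeq2, 29 when the fit held only the compared groups and 31 within the smaller class of library totals, which holds 3 libraries of each group, while RLE scaling, no filter and surrogate variables gave 71, 66 and 65. Leaving out a library gave 50 to 71 calls. Of the 71 transcripts, 38 were called in all 8 of these fits (29 higher, 9 lower), 21 in every fit tried (18 higher, 3 lower) and 2, XM_032942170.1 and XM_032926791.1, in none of the 8. No transcript named from this comparison reversed its direction in any of these fits.

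For 100 against 40 mGy/h, DESeq2 gave 162 calls and only the compared groups 8. The smaller class of totals, with 3 libraries at 100 mGy/h and 2 at 40 mGy/h, gave 6. Leaving out a library gave 28 to 83, with 28 and 30 without replicates 2 and 3 at 40 mGy/h. For 100 against 0.4 to 40 mGy/h, DESeq2 gave 528 and surrogate variables 182; the range without a library was 157 to 368, with 157 and 179 without replicates 4 and 3 at 100 mGy/h. The smaller class holds no library at 10 mGy/h, so that fit was not run. For day 8, the 256 calls became 692 with DESeq2, 163 with no filter and 20 with surrogate variables, and 35 to 184 without 1 library. For the interaction, the 410 calls became 901 with DESeq2 and 634 with surrogate variables, and 153 to 787 without 1 library. The first-component difference of 20.2 was 22.1 with a prior count of 0.5, 18.2 over the 500 most variable transcripts and 8.85 to 27.7 without 1 library. The cause of these shifts was not tested. Where libraries were left out, their smaller number and the particular libraries removed changed together and cannot be told apart.

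The labels' replicate numbers were checked as a pairing. Deviations of same-numbered libraries from their group means correlated at -0.168, 0.0675, -0.282 and -0.274 for replicates 1 to 4. Of the 4 exposed libraries, 0 correlated best with the control of their number. No pairing by number was seen, but so few libraries cannot exclude a shared culture or batch. With a replicate block the calls were 69, 62, 283, 183 and 167 for the 5 comparisons in the order above, and of the transcripts named from 100 against 0 mGy/h on day 4, XM_032939987.1 was the one not called (edgeR adjusted p = 0.0535).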
